A study of Mus musculus with 72 samples.

Results

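The circadian clock genes followed here are 10 genes of the transcriptional clock and its nearest outputs: the repressors Per1, Per2, Per3, Cry1 and Cry2, the activator Clock, the output factors Dbp, Tef and Hlf, and the E-box repressor Bhlhe40. They were taken by symbol from a table of 56691 gene rows. All 10 were found, and all 10 were among the 18727 genes that passed the filter on low counts and were tested. RNA was sequenced from mouse ovarian follicles at the early secondary stage, cultured for 24 h without follicle-stimulating hormone (FSH) or with 1 of its glycoforms, to ask how glycosylation of the hormone shapes the follicle's response. Of the 2 forms, FSH21 carries fewer sugar chains (hypoglycosylated) and FSH24 carries them all; follicles received 1 ng/ml or 10 ng/ml of either. The 72 deposited samples were 18 libraries run on 4 lanes each, and each of the 6 groups held 3 libraries.

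Libraries carry a number in their labels. Untreated libraries 1, 5 and 6 share their numbers with both 1 ng/ml groups, and untreated libraries 2, 3 and 4 share theirs with both 10 ng/ml groups, so each treated group was compared with the untreated libraries of its own numbers. Dose and number set cannot be told apart in the treated libraries, and the 2 glycoforms at a dose share their untreated libraries. All groups, untreated included, had the same medium with serum albumin, fetuin and insulin, transferrin and selenium. The strain and age of the mice, how many animals or follicles went into a library, and the clock time of harvest are not given in the sources used here. Libraries are labelled as biological replicates, but no separate animal or culture is named for them, so the p-values rest on library-to-library spread that may be partly technical.

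In the mammalian clock, CLOCK pairs with BMAL1 (gene Arntl) and binds E-boxes, short DNA elements in the promoters of the Per, Cry, Dbp and Nr1d1 genes among others. The PER and CRY proteins return to the nucleus and repress that pair, which closes the loop within about a day, while the nuclear receptors REV-ERB (Nr1d1, Nr1d2) and ROR act on Arntl through a second kind of element. DBP, TEF and HLF bind D-boxes and carry the rhythm to output genes. Granulosa cells of the ovary run such a clock, and FSH, which raises cAMP in those cells through its receptor, feeds a signalling route (cAMP and the factor CREB) that is a known input to Per1.

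RefSeq promoter windows (build GRCm38.p6) from 250 bases before to 50 bases after a start site were on hand for 8 of the 10 genes. There was no entry for Per2 or Bhlhe40. Both strands were searched for the E-box CACGTG, the D-box TTATGTAA or TTACGTAA, the cAMP response element TGACGTCA, its core TGACG, which also lies within the full element, and the core AGGTCA of the ROR and REV-ERB element. The windows shown are those of Per1, which has 2 start sites, of Per3, Cry1 and Hlf, because they carry between them each kind of motif searched. Only the 250 bases before the start are printed, 5′ to 3′ on the gene's strand, with any of these motifs in capitals on either strand (TGACCT and CGTCA are the reverse of AGGTCA and TGACG).
Per1, first start, chr11:69098699-69098948, plus strand: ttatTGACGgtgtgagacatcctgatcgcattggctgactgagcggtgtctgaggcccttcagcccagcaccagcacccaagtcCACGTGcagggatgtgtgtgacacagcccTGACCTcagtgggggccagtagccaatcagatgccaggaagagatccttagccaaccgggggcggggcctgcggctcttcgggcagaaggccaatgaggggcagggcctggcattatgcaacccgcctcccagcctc
Per1, second start, chr11:69099902-69100151, plus strand: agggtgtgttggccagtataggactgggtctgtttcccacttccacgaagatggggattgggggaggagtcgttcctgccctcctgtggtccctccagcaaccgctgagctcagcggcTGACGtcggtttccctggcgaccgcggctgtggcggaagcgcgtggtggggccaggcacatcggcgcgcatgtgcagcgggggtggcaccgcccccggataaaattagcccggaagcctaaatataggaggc
Per3, chr4:151044666-151044915, minus strand: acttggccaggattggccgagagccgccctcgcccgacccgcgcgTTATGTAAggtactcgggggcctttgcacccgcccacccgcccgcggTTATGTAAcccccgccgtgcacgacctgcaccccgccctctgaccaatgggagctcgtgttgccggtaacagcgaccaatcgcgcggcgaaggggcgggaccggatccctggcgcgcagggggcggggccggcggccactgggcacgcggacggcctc
Cry1, chr10:85185055-85185304, minus strand: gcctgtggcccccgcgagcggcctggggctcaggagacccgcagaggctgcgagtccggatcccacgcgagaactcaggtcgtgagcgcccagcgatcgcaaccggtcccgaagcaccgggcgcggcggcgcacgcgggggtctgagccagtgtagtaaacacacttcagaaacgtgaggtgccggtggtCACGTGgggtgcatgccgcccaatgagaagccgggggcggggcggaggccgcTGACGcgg
Hlf, chr11:90390918-90391167, minus strand: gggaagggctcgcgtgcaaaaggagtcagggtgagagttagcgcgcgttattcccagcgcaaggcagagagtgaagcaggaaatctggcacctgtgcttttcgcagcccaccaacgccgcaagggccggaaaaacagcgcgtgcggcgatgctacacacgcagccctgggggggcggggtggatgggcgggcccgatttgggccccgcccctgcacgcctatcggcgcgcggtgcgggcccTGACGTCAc

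An E-box was present for Per1 (first base at -166 from the first start), Cry1 (-60) and Tef, 3 of 8 genes, and in 7.15% of the 32851 mouse promoter windows. The D-box was found for Per3 alone of the 8, at -205 and -158, and in 1.06% of all windows. The full cAMP response element was found for Hlf alone, at -9, against 1.79% of all windows, and the core TGACG for Per1, Cry1, Cry2 and Hlf, against 20.8%. Per1 held TGACG at both starts, at -246 and at -132. AGGTCA was present for Per1 and Clock, each in only 1 of its windows, against 16.3%. A gene was counted if any of its windows held the motif, and Per1 and Tef had 2 windows each and Clock 3. The percentages are per single window, so the gene counts and these shares are in unlike units. A match is a description of these letters and does not show that a factor binds there.

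In untreated follicles all 10 genes were expressed, at levels that spanned 41.3-fold per length of transcript. Levels are counts per 1000000 (CPM) on TMM-adjusted library totals, and for comparison between genes they were divided by the length of the merged exons in kb. Cry1, which encodes a core repressor, had the highest mean level at 19.4 ± 1.17 CPM per kb (SD, n = 6 untreated libraries), followed by the D-box factor gene Tef at 13.1 ± 0.706 and Bhlhe40 at 12.04 ± 2.52. Dbp (7.47 ± 1.19), Per1 (7.38 ± 0.328) and Cry2 (7.25 ± 0.473) lay together in the middle of the order. Per3 (5.75 ± 0.357) and Clock (5.68 ± 0.464), the gene of the activator, came next. Per2 (1.76 ± 0.141) and Hlf (0.471 ± 0.0804) stood lowest, Per2 at 3.23 times less than Clock and Hlf at 3.74 times less than Per2. Neighbours whose ranges over the 6 libraries overlapped were Tef with Bhlhe40, Dbp with Per1, Per1 with Cry2, and Per3 with Clock. The other neighbouring pairs did not overlap.

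**Figure D1:**
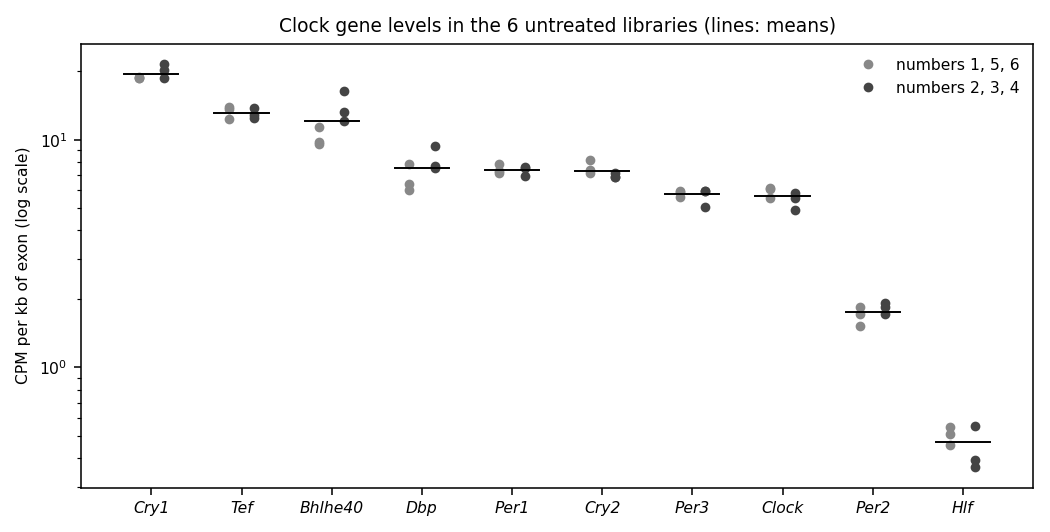
Levels of the 10 clock genes in the 6 untreated libraries, in CPM per kb of merged exon on a log axis. Points are libraries, light grey for numbers 1, 5 and 6 and dark grey for numbers 2, 3 and 4, and lines are means over the 6; Cry1 is highest at a mean of 19.4 and Hlf lowest at 0.471.

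Among themselves the genes differed in how much they varied. Over all 18 libraries the coefficient of variation of the CPM was 34.5% for Hlf, 31.4% for Bhlhe40 and 21.5% for Per2. It was 13% for Dbp, 10.6% for Per1 and 5.09% for Cry1, the lowest of the 10. The coefficient includes the treated libraries, so it also holds any difference between the groups. It is therefore no separate support for the separation of Hlf, Bhlhe40 and Per2 at 10 ng/ml. Hlf rested on few reads, 19 to 82 counts per library, while Per2 had 173 to 333 and the other 8 genes at least 396 in every library.

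With 10 ng/ml FSH21, Per2 rose and Hlf fell against the untreated libraries 2, 3 and 4 in the main fit, which leaves the library number out. The other 8 genes did not pass the test there. A call here is an adjusted p under 0.05 in edgeR's quasi-likelihood test over all genes tested. That made 2 of 10 members called, where 10.2% of all genes tested were called, 5.96% higher and 4.21% lower. Unadjusted p-values were under 0.05 for 4 of 10 members and for 22% of all genes tested. The ranges of the groups did not overlap for 4 of the 10 (Per1, Per2, Hlf and Bhlhe40), against 27.7% of all genes tested. The median log2 fold change was 0.087 over the 10 genes and 0.000 over all genes tested, with 7 values positive and 3 negative. With the library number as a replicate block, which takes up the pairing of these libraries, 4 of the 10 were called, against 15.1% of all genes tested.

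Per2 (chromosome 1, 91415982 to 91459324, minus strand, GENCODE M21) encodes a repressor whose loss shortens or abolishes rhythms in mice. It was at 10.8, 10.1 and 11.2 CPM in untreated libraries 2, 3 and 4 and at 16.9, 14.4 and 15.95 CPM in the FSH21 libraries of the same numbers. All 3 treated libraries lay above all untreated ones. The rise was 1.47-fold (log2 fold change 0.56, SE 0.14, adjusted p = 0.0112), and it was 1.57-, 1.42- and 1.42-fold within numbers 2, 3 and 4. Leaving out FSH21 library 2 (0.49, adjusted p = 0.0624) or untreated library 3 (0.50, adjusted p = 0.0617) ended the call.

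Hlf (chromosome 11, 90336536 to 90390895, minus strand) encodes a D-box factor of the PAR bZIP family. Its levels were 2.43, 2.61 and 3.71 CPM in untreated libraries 2, 3 and 4 and 1.84, 0.872 and 1.34 CPM with FSH21. The 33, 19 and 28 counts behind the treated values make them coarse, yet none reached the lowest untreated value. Hlf fell by 1.118 on the log2 scale (SE 0.28, adjusted p = 0.0154), to 0.461 of the untreated level. The call ended without FSH21 library 3 (-0.89, adjusted p = 0.0876), without FSH21 library 4 (-1.117, adjusted p = 0.0557), without untreated library 4 (-0.93, adjusted p = 0.0904), and when only the 2 groups compared entered the fit (adjusted p = 0.0655).

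Per1 and Bhlhe40 also lay higher with FSH21 in every library but missed the threshold in the main fit. Per1 (chromosome 11, 69095217 to 69109960, plus strand), a period gene that answers cAMP quickly in many tissues, was at 39.1, 42.4 and 42.9 CPM without FSH and at 45.6, 50.95 and 51.05 CPM with FSH21. Its log2 fold change was 0.25 (SE 0.08, adjusted p = 0.0687). Bhlhe40 (chromosome 6, 108660629 to 108666925, plus strand), whose product represses from E-boxes, was at 76.8, 56.7 and 62.2 CPM without FSH and at 94.6, 118.5 and 95.8 CPM with FSH21, a log2 fold change of 0.66 (SE 0.25, adjusted p = 0.131). The same-numbered ratios for Bhlhe40 ran from 1.23 in number 2 to 2.09 in number 3. In this comparison the library numbers pair the samples, and with the number as a replicate block both genes were called, Per1 at 0.25 (adjusted p = 0.0444) and Bhlhe40 at 0.66 (adjusted p = 0.0437). That made 4 of 10 members called with the block, where 15.1% of all genes tested were called. The same 4 genes were called against all 6 untreated libraries, where 15.5% of all genes tested were called. Untreated libraries 1, 5 and 6 lay lower for Bhlhe40, at 45.0 to 53.5 CPM. With them its log2 fold change was 0.86, so that call carries the difference between the untreated sets.

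The remaining repressors, the activator and the other D-box factors had log2 fold changes between -0.10 and 0.16 with 10 ng/ml FSH21, and their group ranges overlapped. Cry1 differed by 0.00 (95% interval -0.13 to 0.14), Cry2 by -0.08 (-0.22 to 0.06) and Clock by -0.10 (-0.25 to 0.05). Per3, the period gene least needed for rhythm, differed by 0.14 (-0.04 to 0.32). Dbp and Tef, the D-box factors of the same family as Hlf, differed by 0.16 (-0.09 to 0.40) and 0.03 (-0.12 to 0.19).

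**Figure D2:**
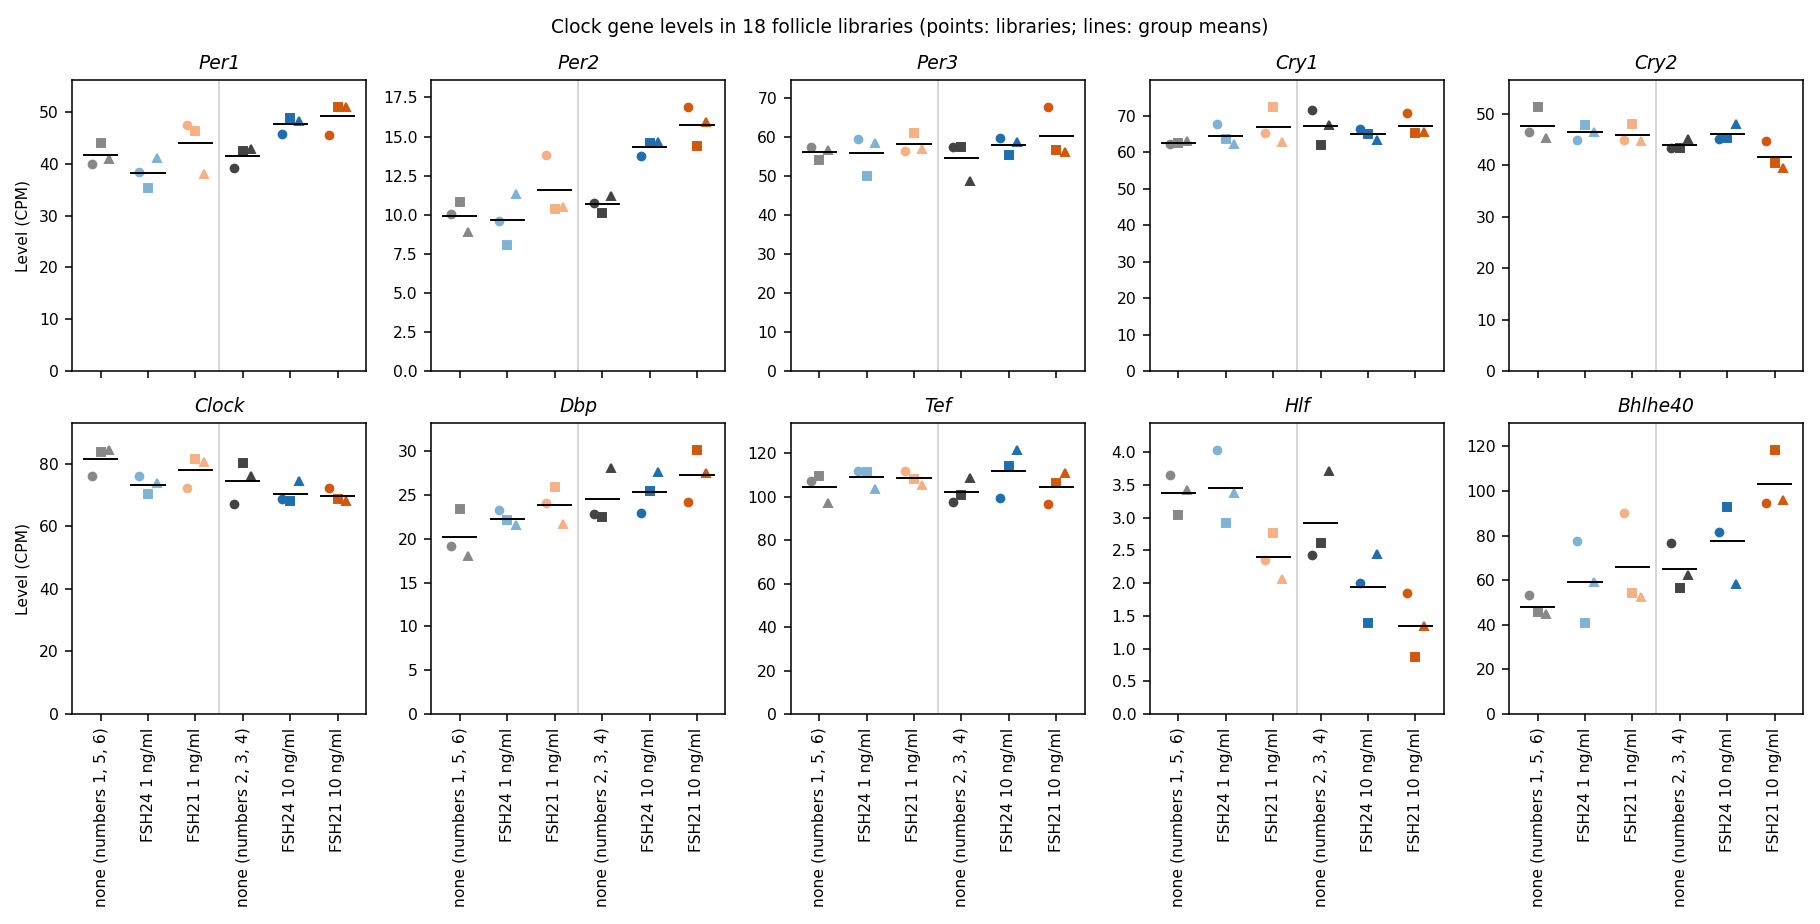
CPM of each clock gene in all 18 libraries by group, with axes from 0. Circles, squares and triangles are library numbers 1, 5 and 6 left of the grey line and 2, 3 and 4 right of it, and black lines are group means; Per2 and Per1 are highest and Hlf lowest in the 10 ng/ml groups at the right of each panel.

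With 10 ng/ml FSH24 no member was called in the main edgeR fit, against 8.42% of all genes tested. Unadjusted p-values there were under 0.05 for 3 of 10, against 20.8%. DESeq2 called 1, Per2, where it called 10.5% of all genes tested. Group ranges did not overlap for 2 of 10, Per1 and Per2, against 24.5%. Per2 was at 13.8, 14.6 and 14.6 CPM, above each of its untreated libraries, and its log2 fold change was 0.42 (SE 0.14, adjusted p = 0.0633; 0.0445 in DESeq2). Per1 was at 45.8, 48.9 and 48.2 CPM, also above each untreated library, with a log2 fold change of 0.20 (SE 0.08, adjusted p = 0.166). Per1 and Per2 were thus higher than in the untreated library of the same number in 3 of 3 numbers, without a call in the main fit. That count follows from ranges that did not overlap. Per3 overlapped the untreated range and was 0.964 of its untreated partner in number 3. With the replicate block edgeR called Per2 (0.42, adjusted p = 0.042), where 13.6% of all genes tested were called. It also called Per2 against all 6 untreated libraries (0.47, adjusted p = 0.00855), where 12.2% were called. Per1 was not called in either. Hlf was at 2.00, 1.39 and 2.445 CPM and overlapped the untreated range (-0.58, SE 0.28, adjusted p = 0.235). Bhlhe40 was at 81.6, 92.65 and 58.4 CPM and was higher than its untreated partner in 2 of 3 numbers (0.25, SE 0.25, adjusted p = 0.666). The other 6 genes had log2 fold changes between -0.08 and 0.13.

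**Figure D3:**
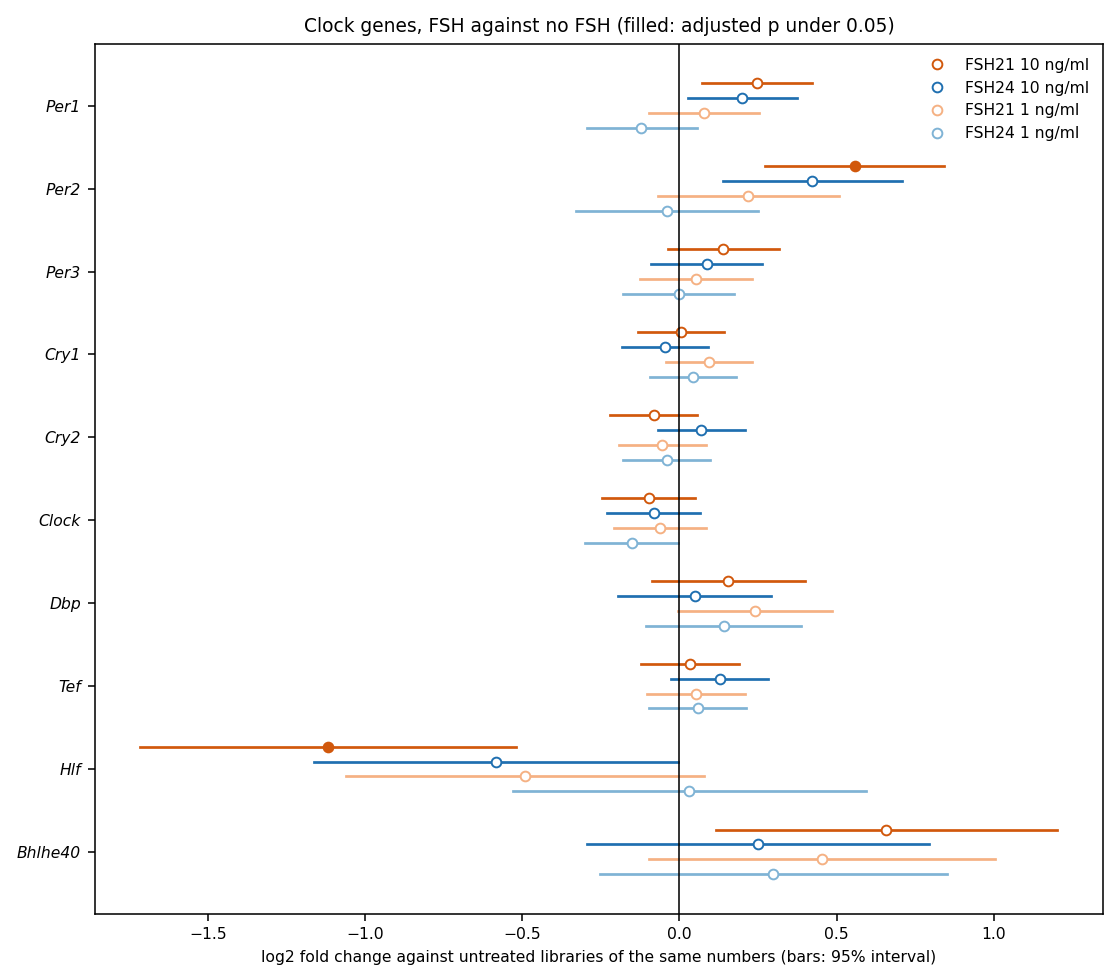
Log2 fold changes of the 10 clock genes for the 4 treated groups against the untreated libraries of the same numbers, with 95% intervals from the edgeR fit. Filled points have an adjusted p under 0.05; these are Per2 (0.56) and Hlf (-1.118) with FSH21 at 10 ng/ml.

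The 2 glycoforms were then compared directly at each dose. At 10 ng/ml no member was called by edgeR or DESeq2, where edgeR called 0% of all genes tested and DESeq2 called 5 genes. Group ranges did not overlap for 2 of 10, Bhlhe40 and Cry2, against 7.09%. Per2 differed by 0.14 on the log2 scale (FSH21 minus FSH24, 95% interval -0.15 to 0.42), Per1 by 0.05 (-0.13 to 0.22), Hlf by -0.53 (-1.14 to 0.08) and Bhlhe40 by 0.41 (-0.13 to 0.95). These intervals leave room for differences of the size seen against untreated follicles for Hlf and Bhlhe40, so a difference between the glycoforms was not detectable and is not shown to be absent. Cry2 was the 1 member with an unadjusted p under 0.05, against 2.19% of all genes tested, at 44.7, 40.4 and 39.5 CPM with FSH21 and 45.1, 45.2 and 48.05 CPM with FSH24 (-0.15, p = 0.0336, adjusted p = 1). At 1 ng/ml no member was called by either tool, against 0.0107% of all genes tested in edgeR, and 1 had an unadjusted p under 0.05, Per1 (0.20, p = 0.0285, adjusted p = 0.459), against 9.45%. Hlf alone did not overlap there (-0.52, adjusted p = 0.568), 1 of 10 against 14.9%.

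At 1 ng/ml neither glycoform moved a clock gene past the threshold. No member was called by edgeR or DESeq2 with FSH21, against 0.128% of all genes tested in edgeR, and none had an unadjusted p under 0.05, against 7.32%. No member was called by either tool with FSH24, against 0% in edgeR and 1 gene in DESeq2. In edgeR 1 member had an unadjusted p under 0.05, Clock (-0.15, SE 0.07, p = 0.0435), against 5.98%. Clock, at 70.2 to 76.0 CPM with FSH24 and 76.2 to 84.5 CPM without, was also the 1 member of 10 whose ranges did not overlap, against 10.3%. Per2 was at 10.1, 10.8 and 8.89 CPM in untreated libraries 1, 5 and 6, at 13.8, 10.4 and 10.5 CPM with FSH21 and at 9.57, 8.03 and 11.3 CPM with FSH24. Hlf was at 3.645, 3.045 and 3.42 CPM without FSH, at 2.36, 2.76 and 2.06 CPM with FSH21 and at 4.04, 2.92 and 3.38 CPM with FSH24. The FSH21 libraries lay below every untreated one for Hlf (-0.49, SE 0.27, adjusted p = 0.773), the only member whose ranges did not overlap in that comparison, against 13% of all genes tested. Per1 was at 40.0, 44.0 and 41.0 CPM without FSH, at 47.4, 46.4 and 38.1 CPM with FSH21 and at 38.5, 35.4 and 41.1 CPM with FSH24, so the groups overlapped. Bhlhe40 was at 53.5, 45.8 and 45.0 CPM without FSH, at 90.3, 54.3 and 52.7 CPM with FSH21 and at 77.7, 40.7 and 59.3 CPM with FSH24. Library 1 was the highest of its group for Bhlhe40 in all 3.

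Whether the response differed between doses was tested as the difference between the 10 and 1 ng/ml effects, each against its own untreated libraries. No member was called for FSH21, where 0.272% of all genes tested were, and none had an unadjusted p under 0.05, against 7.01%. For FSH24 no member was called, where 2.45% of all genes were, and 2 had an unadjusted p under 0.05, against 14.9%: Per1 (difference 0.32 on the log2 scale, SE 0.12, p = 0.014, adjusted p = 0.185) and Per2 (0.46, SE 0.19, p = 0.028, adjusted p = 0.257). DESeq2 called no member in either test. For Hlf the differences were -0.63 (95% interval -1.45 to 0.20) with FSH21 and -0.62 (-1.42 to 0.19) with FSH24. A dose difference in the clock genes was therefore not shown, and it would carry the difference between the 2 sets of untreated libraries. Between those sets no member was called by edgeR or DESeq2, against 0% of all genes tested in edgeR and 1 gene in DESeq2. In edgeR 1 member had an unadjusted p under 0.05, Dbp (0.28 higher in libraries 2, 3 and 4, p = 0.029, adjusted p = 0.901), against 5.45%. Bhlhe40 did not overlap between them, at 45.0 to 53.5 CPM in libraries 1, 5 and 6 and 56.7 to 76.8 CPM in libraries 2, 3 and 4, nor did Cry2, 2 of 10 against 11% of all genes tested.

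Of 12 other core clock genes, 1 rose and 3 fell with 10 ng/ml FSH21, and 1 rose and 1 fell with 10 ng/ml FSH24 (edgeR), where 10.2% and 8.42% of all genes tested were called. DESeq2 gave the same counts, where it called 12.3% and 10.5% of all genes tested. Group ranges did not overlap for 4 and 6 of the 12, against 27.7% and 24.5% of all genes tested. The rise was in both cases Bhlhe41, the close relative of Bhlhe40 that also represses from E-boxes. It was at 8.75, 6.88 and 7.64 CPM in untreated libraries 2, 3 and 4, at 17.7, 17.5 and 21.3 CPM with FSH21 (1.28, SE 0.20, adjusted p = 0.00032) and at 14.35, 14.96 and 13.45 CPM with FSH24 (0.88, SE 0.20, adjusted p = 0.00876). Both treated groups lay wholly above the untreated one. The call with FSH24 ended without untreated library 3 (0.78, adjusted p = 0.0532).

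The falls with FSH21 were in the REV-ERB genes and in Nfil3, whose product represses from D-boxes, the sites that DBP, TEF and HLF activate. Nr1d1 (chromosome 11, 98767932 to 98775333, minus strand) was at 27.8, 25.8 and 26.2 CPM without FSH, at 18.8, 17.3 and 18.6 CPM with FSH21 (-0.55, SE 0.08, adjusted p = 0.000264) and at 22.2, 23.2 and 22.05 CPM with FSH24 (-0.24, SE 0.08, adjusted p = 0.0816). Its 3 groups did not overlap, with FSH21 lowest. The direct comparison of the glycoforms gave -0.30 (SE 0.08, p = 0.00212) but an adjusted p of 1. Nr1d2, the second REV-ERB gene, was at 55.8, 65.0 and 61.2 CPM without FSH and at 52.1, 48.4 and 49.8 CPM with FSH21 (-0.28, SE 0.07, adjusted p = 0.0209). With FSH24 it was at 57.3, 49.8 and 56.6 CPM, which overlapped the untreated range (-0.15, adjusted p = 0.244). The Nr1d2 call ended without FSH21 library 3 (adjusted p = 0.0724), FSH21 library 4 (adjusted p = 0.0695) or untreated library 3 (adjusted p = 0.0844).

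Nfil3 fell with both forms, from 56.85, 50.0 and 49.65 CPM to 48.3, 36.9 and 39.8 CPM with FSH21 (-0.33, SE 0.09, adjusted p = 0.0318) and to 44.5, 40.1 and 35.8 CPM with FSH24 (-0.38, SE 0.09, adjusted p = 0.0148). The FSH21 call ended without FSH21 library 3 (adjusted p = 0.155), FSH21 library 4 (0.128) or untreated library 2 (0.113), with all 6 untreated libraries as control (0.0883) and with only the 2 groups in the fit (0.102). The FSH24 call ended without FSH24 library 4 (0.0907) or untreated library 2 (0.0649). Arntl, the gene of BMAL1 and a target of the REV-ERB proteins, was at 22.5, 23.2 and 22.7 CPM without FSH, at 21.8, 25.2 and 24.5 CPM with FSH21 (0.07, 95% interval -0.14 to 0.27, adjusted p = 0.774) and at 21.9, 20.65 and 20.9 CPM with FSH24 (-0.11, -0.31 to 0.10, adjusted p = 0.607). None of the 12 was called at 1 ng/ml with either form.

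**Figure D4:**
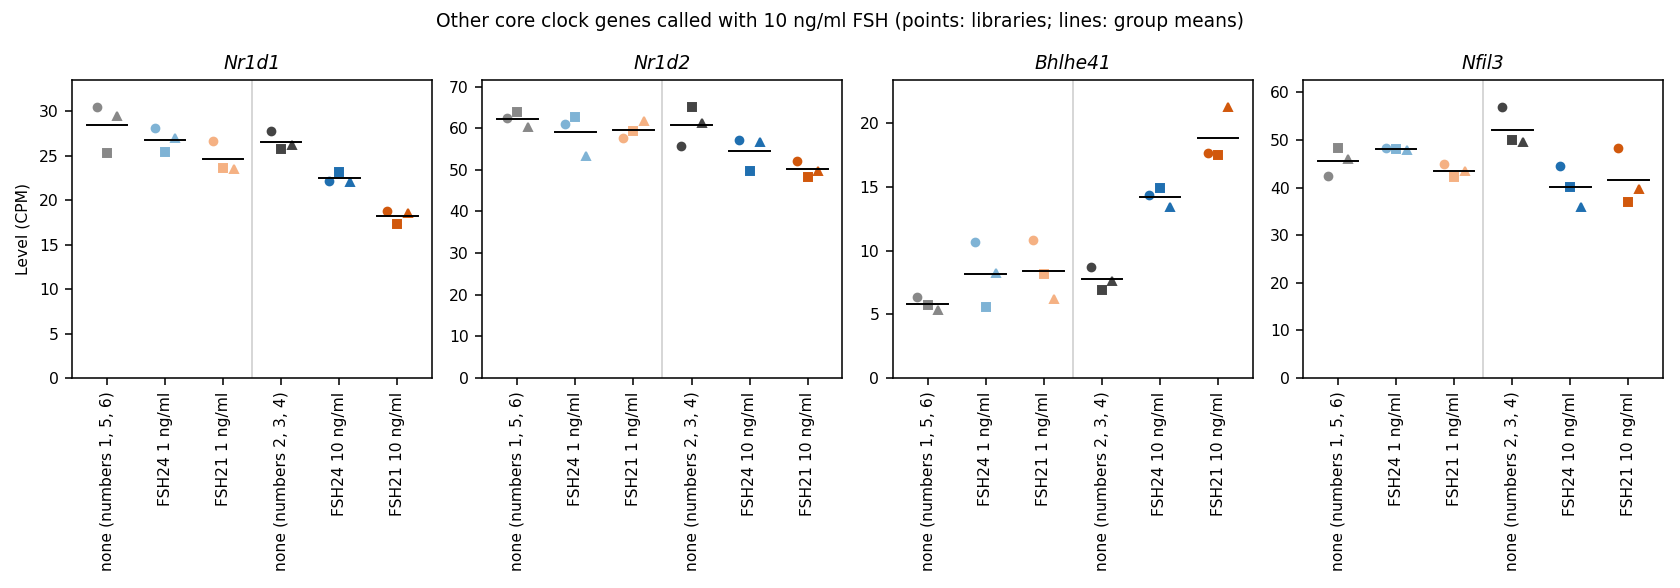
CPM of the 4 other core clock genes called at 10 ng/ml (Nr1d1, Nr1d2, Bhlhe41 and Nfil3) in all 18 libraries by group, with axes from 0. Circles, squares and triangles are library numbers 1, 5 and 6 left of the grey line and 2, 3 and 4 right of it, and lines are group means; Bhlhe41 is near 18.8 with FSH21 at 10 ng/ml and Nr1d1 near 18.2, against untreated means of 7.76 and 26.6.

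**Figure D5:**
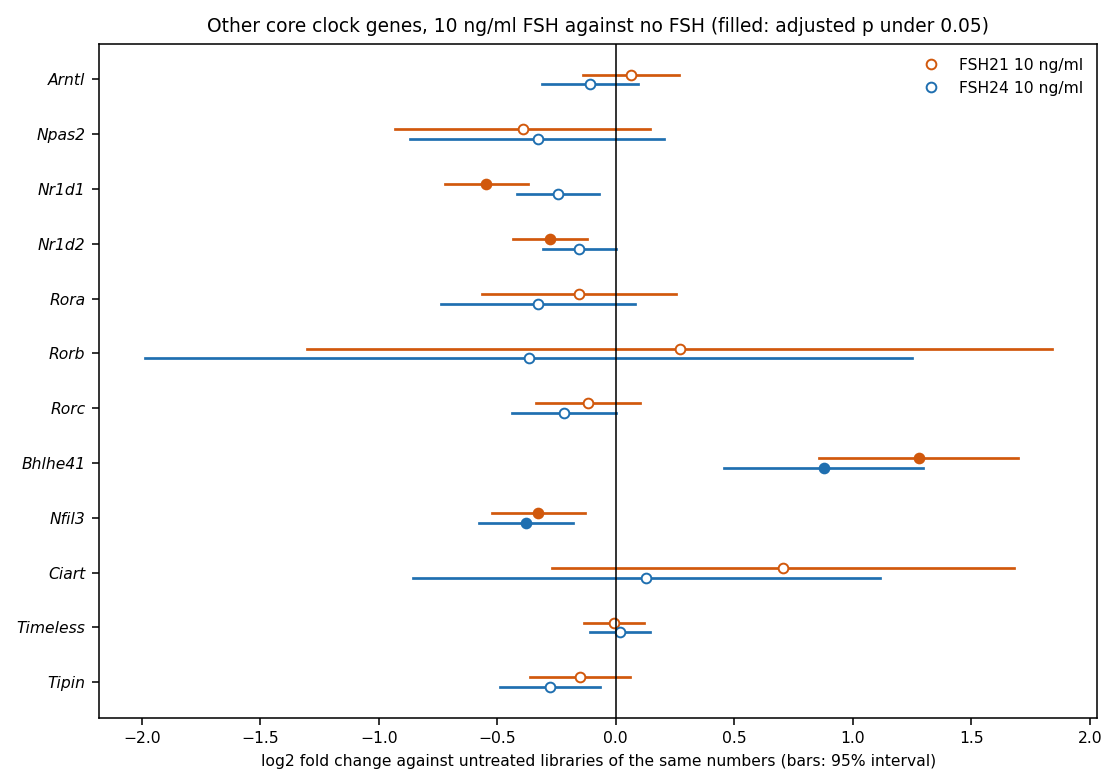
Log2 fold changes of the 12 other core clock genes at 10 ng/ml against untreated libraries 2, 3 and 4, with 95% intervals. Filled points have an adjusted p under 0.05: Bhlhe41 and Nfil3 with both forms, Nr1d1 and Nr1d2 with FSH21.

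Of 14 kinases, ubiquitin ligases and partner proteins of the clock, edgeR called 1 higher and none lower in each 10 ng/ml comparison, against 10.2% of all genes tested with FSH21 and 8.42% with FSH24. Group ranges did not overlap for 6 of 14 with FSH21 and 4 of 14 with FSH24, against 27.7% and 24.5%, and 4 of 14 had an unadjusted p under 0.05 in each, against 22% and 20.8%. The gene called was Gsk3b, a kinase that phosphorylates several clock proteins, at 138.9 ± 10.7 CPM without FSH, 169 ± 4.26 with FSH21 (0.28, SE 0.07, adjusted p = 0.0103) and 166.1 ± 7.37 with FSH24 (SD, n = 3 each; 0.26, SE 0.07, adjusted p = 0.0217). DESeq2 called 2 higher, Gsk3b and Sfpq, and 1 lower, Wdr5, in both comparisons (12.3% and 10.5% of all genes tested). The replicate block added Wdr5, a partner of the PER proteins, as lower with FSH21 (15.1% of all genes tested); Sfpq and Wdr5 are named after their values were seen. The FSH21 call for Gsk3b ended without FSH21 library 4 (adjusted p = 0.0506), untreated library 2 (0.0686) or untreated library 4 (0.0781). Its FSH24 call ended without FSH24 library 2 (0.056) or 4 (0.128), without untreated library 2 (0.132) or 4 (0.137), and with only the 2 groups in the fit (0.0694).

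Of 10 genes that cycle with the clock in many tissues, edgeR called 1 lower and none higher with either form at 10 ng/ml, a share close to the 10.2% and 8.42% of all genes tested. Group ranges did not overlap for 5 of 10 with FSH21 and 2 of 10 with FSH24, against 27.7% and 24.5%. The gene called was the tetraspanin gene Tspan4, at 33.8 ± 2.41 CPM without FSH, 23.96 ± 1.69 with FSH21 (-0.50, SE 0.10, adjusted p = 0.00248) and 24.8 ± 3.34 with FSH24 (-0.45, SE 0.10, adjusted p = 0.00688). With the replicate block, 2 genes of this list were called higher with FSH21 and 1 lower, where 15.1% of all genes tested were called. The 2 were Klf9 and Nampt, of which DESeq2 also called Klf9 (12.3% of all genes tested); both are named after their values were seen.

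The cAMP and CREB list, 11 genes, had 2 rises and 1 fall with 10 ng/ml FSH21 and 1 rise with FSH24 in edgeR, against 10.2% and 8.42% of all genes tested. DESeq2 gave the same counts, against 12.3% and 10.5%. The share of 1 in 11 with FSH24 is near that background. Group ranges did not overlap for 3 of 11 in each comparison, against 27.7% and 24.5%. Crem, whose short product ICER is a cAMP-induced repressor, went from 4.47 ± 0.945 to 7.05 ± 0.499 CPM with FSH21 (0.66, SE 0.17, adjusted p = 0.0153) and was at 6.175 ± 0.133 CPM with FSH24 (0.47, SE 0.17, adjusted p = 0.102). Crtc1, a coactivator of CREB, went from 97.8 ± 3.18 to 118.5 ± 10.6 CPM with FSH21 (0.28, SE 0.08, adjusted p = 0.0461) and to 121.3 ± 12.2 CPM with FSH24 (0.31, SE 0.08, adjusted p = 0.0282). Crtc3, a second coactivator, fell from 119.3 ± 4.4 to 97.8 ± 4.29 CPM with FSH21 (SD, n = 3 each; -0.29, SE 0.07, adjusted p = 0.0185). These calls are near the threshold: Crem lost its FSH21 call without FSH21 library 3 (0.0664) or 4 (0.0504), without untreated library 2 (0.0872) or 4 (0.0783), without the count filter (0.0512) and with only the 2 groups (0.0587). Crtc1 lost it with FSH21 without FSH21 library 2 (0.244) or 4 (0.0799), without any 1 of untreated libraries 2, 3 and 4 (0.158, 0.0971 and 0.154), with RLE scaling (0.0547) and with all 6 untreated libraries (0.115). With FSH24, Crtc1 lost it without FSH24 library 4 (0.22), without any 1 of untreated libraries 2, 3 and 4 (0.12, 0.0675 and 0.115), and with all 6 untreated libraries (0.0701). Crtc3 lost it without FSH21 library 2 (0.063) or 4 (0.0512) or untreated library 4 (0.0517). No gene of these 3 lists was called at 1 ng/ml.

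The libraries held both cell types of the follicle: summed over 8 markers each, granulosa transcripts were at 4700 to 6883 CPM and oocyte transcripts at 3143 to 3993 CPM across the 18 libraries. Fewer cells of a type and less RNA per cell cannot be told apart in these bulk samples. At 10 ng/ml the granulosa sum was 6485 to 6848 CPM with FSH21 and 6036 to 6428 with FSH24, against 5097 to 6437 without FSH, with 4 of 8 markers called higher and none lower by edgeR in each comparison (10.2% and 8.42% of all genes tested were called). With the replicate block, Fshr and Nr5a2 were also called lower with FSH21, and Nr5a2 with FSH24. The oocyte sum was 3322 to 3738 and 3330 to 3581, against 3796 to 3993. All 8 oocyte markers had negative log2 fold changes in both comparisons and edgeR called none. An unadjusted p was under 0.05 for 1 and 2 of 8, against 22% and 20.8% of all genes tested. Zp3 was called lower with the replicate block for both forms, and by DESeq2 with FSH24. The untreated libraries compared with the 1 ng/ml groups had oocyte sums of 3143 to 3685, which both 10 ng/ml groups overlapped. The untreated libraries used at 10 ng/ml were higher than that set for 8 of 8 oocyte markers (median log2 difference 0.169). Ranges did not overlap for 6 of 8, against 11% of all genes tested. An unadjusted p was under 0.05 for 3 of 8, against 5.45%, and edgeR called none. How far the lower oocyte values at 10 ng/ml carry this difference was not tested. The surface epithelium sum (4 of 4 markers tested) was 80.1 to 80.7 and 73.3 to 83.6 CPM, against 36.4 to 49.6, and of its 4 genes Krt8 alone passed the test. The theca and stroma sum (8 of 8 tested) was 1432 to 2226 and 1490 to 2194, against 1301 to 1699, with Cyp17a1 and Star called higher with both forms. Of these 8 markers, 5 had positive and 3 had negative log2 fold changes in each comparison. The replicate block added Hsd3b1 with both forms and Lhcgr with FSH21. Against all 6 untreated libraries, 2 of the 8 were called higher and 1 lower with FSH21, where 15.5% of all genes tested were called. The endothelium sum (4 of 4) was 64.8 to 83.2 and 69.95 to 79.6, against 64.0 to 98.4. The immune sum (1 of 4 markers tested) stayed at or below 2.32 CPM in every library. No listed marker was at 0 in all 18 libraries. The part of these shifts in the clock gene values was not tested.

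Some clock genes share exon bases with a gene on the opposite strand, and the use of strand in counting was not given, so reads of the shared stretch cannot be told apart. Dbp shares 539 bases with Sphk2, whose level averaged 70.6 CPM over the 18 libraries against 23.9 CPM for Dbp, and Sphk2 was not called with FSH21 (0.15, adjusted p = 0.206) or FSH24 (0.19, adjusted p = 0.118) at 10 ng/ml. Nr1d1 shares 263 bases with Thra (171 CPM), which was not called either (-0.05, adjusted p = 0.744 and 0.02, adjusted p = 0.942). Bhlhe40, Cry2, Tef and Bhlhe41 share between 118 and 1280 bases with antisense or uncharacterised transcripts at 1.32 CPM or less. Per1, Per2, Cry1 and Hlf share none.

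Genes with the most similar profile were to be named for members called with both forms at 10 ng/ml, and no member was. For the 2 called with FSH21 they were looked up after the values were seen, as Pearson's correlation of log2 CPM across genes over the same 18 libraries. For Per2 they were Dlgap4 (r = 0.946), Ints4 (0.931) and Dhdh (0.928). For Hlf they were Nrp2 (0.898), Nlrc5 (0.894) and Rhobtb1 (0.892). These points share libraries, groups and depth, and the values are a description.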

How the data were processed

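RNA was measured by mRNA-seq in 18 libraries of mouse follicles, each run on 4 lanes. The deposited table holds expected counts per gene with the lanes merged, which the authors made with RSEM per the file headers (the column names). Of the values above 0, 33.9% had a fractional part. Reads went through bcl2fastq, FastQC and STAR 2.7 on mm10, per the submitters' processing notes. Which annotation and RSEM version were used, and whether counting used strand, is not given in the sources used here. Library totals were 17512921 to 22509689 counts (median 21425298), so depth limited only low genes such as Hlf.

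Expected counts were rounded. Genes were kept by filterByExpr with a minimum count of 10, which left 18727 of 56691, and were scaled by TMM. One robust quasi-likelihood fit in edgeR 4.0.16 (R 4.3.3, limma 3.58.1) covered all 6 groups, with Benjamini-Hochberg adjustment over all genes tested, and adjusted p under 0.05 was a call. SEs come from the F statistic. The fit was also run on simulated counts with known fold changes. These were drawn independently for each library, so that run does not cover variation shared by same-numbered libraries. Exon lengths and positions are from GENCODE M21 (GRCm38), which matched 52073 gene IDs. Group labels came from sample titles; the untreated library 4 carries a further digit in its title. Alternatives were DESeq2 1.42.0, RLE scaling and plain totals, no filter, only the groups compared, all 6 untreated libraries as control, the library number as a replicate block, and each library left out.

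Same-numbered libraries were checked for shared deviations from their group means: over 18 pairs the correlation was 0.05 to 0.23, and 12 pairs passed 0.1. The untreated and FSH21 libraries at 10 ng/ml passed in all 3 pairs (0.193, 0.206 and 0.126) and were taken as paired. All 18 pairs correlated best with their own number, so same-numbered libraries may share variation in the other comparisons too. The text names all 10 members, and from the other lists the genes called in at least 1 treated group, at most 6 per list, plus Arntl, Nr1d1 and Nr1d2. The members and the lists were chosen with earlier results of these data known.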

Additional observations from a re-analysis of the deposited data

How the results depend on the processing

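The count of clock genes called with 10 ng/ml FSH21 was 2 in the main fit, which leaves the library number out. It was 4 with all 6 untreated libraries as control (15.5% of all genes called). It was also 4 with the replicate block (15.1%), which takes up the pairing, and 1 to 2 when each library was left out. With 10 ng/ml FSH24 the count of 0 became 1, Per2, with all 6 untreated libraries (12.2% of all genes), with DESeq2 (10.5%) and with the replicate block (13.6%), and stayed at 0 with each library left out. In the other 7 comparisons it was 0 under every alternative run. Per1 and Bhlhe40 were also called with FSH21 at 10 ng/ml against all 6 untreated libraries (adjusted p = 0.021 and 0.0189), and Bhlhe40 with only the 2 groups in the fit (0.02). Since all 18 pairs correlated best with their own number, same-numbered libraries may share variation outside the paired comparison too. With FSH24 at 10 ng/ml the block also brought a call for Nr1d1 (adjusted p = 0.038) and Crem (0.0429). No paired analysis was possible between the untreated sets because they share no numbers. The block with FSH24 also brought calls for Sfpq and Wdr5. Against all 6 untreated libraries, the further calls in the gene lists were Ddb1, Klf9, Nampt and Acta2 with FSH21 and Nr1d1, Tipin, Prkaa1 and Crtc3 with FSH24. Over all genes, 1906 calls with FSH21 at 10 ng/ml became 2898 with all 6 untreated libraries and 1250 without untreated library 4. The 1577 with FSH24 became 2547 with the replicate block 1029 and 995 without FSH24 library 2 or 4, and 982 without untreated library 4. With FSH21 at 1 ng/ml, 24 calls ranged from 0 (without FSH21 library 5 or untreated library 6) to 226 (replicate block), and with FSH24 at that dose 0 became 1 with DESeq2. Between the forms, 0 at 10 ng/ml became 5 and 2 at 1 ng/ml became 204 with DESeq2, and the latter was 177 with the replicate block. The dose differences gave 51 for FSH21 (20 to 229) and 458 for FSH24 (217 to 1180), highest with the replicate block, and the untreated sets 0 (1 with DESeq2). No called value changed sign, while 75 of 1599 log2 values under alternatives changed sign without a call on either side. Group mean levels moved by less than 1 SD under RLE scaling or plain totals. Depth limits Hlf, at 19 to 82 counts.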
